A study of Sus scrofa with 63 samples.

Results

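PPARGC1A and the regulators of mitochondrial biogenesis that work with it were followed in the jejunum of pig fetuses late in gestation. The set held 10 genes, PPARGC1A, PPARGC1B, PPRC1, ESRRA, ESRRG, NRF1, GABPA, TFAM, TFB2M and POLG, and its members were all array probes whose gene name equals 1 of these symbols. By this rule 17 of the 60305 probes of the array were members, and they covered 7 of the 10 genes. PPARGC1B, NRF1 and TFB2M had no probe under these names and were not analysed here. Of the 17 probes, 14 were tested, among 40515 probes in all that stood well above background in 75% or more of the fetuses of some group.

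Middle jejunum of 63 male fetuses was hybridised, 1 fetus per array, to a one-colour Agilent porcine array on 8 slides. The fetuses were purebred Large White (LW), purebred Meishan (MS) or reciprocal crosses, LWMS from MS sows with LW sires and MSLW from LW sows with MS sires, taken by caesarean section at day 90 or day 110 of gestation. Sows had received mixed semen of both breeds, so a litter could hold purebred and crossbred fetuses. Fetuses of a litter shared their sow and their age, which the fits did not take into account. At day 90 there were 9 LW, 8 MSLW, 9 LWMS and 6 MS fetuses, and at day 110 there were 9 LW, 6 MSLW, 9 LWMS and 7 MS fetuses. LW piglets are known for a higher mortality at birth than MS piglets, and the design asks how the intestine of these breeds matures. Levels are given as the log2 of the background-corrected signal divided by the 75th percentile of its array, so that 0 is the 75th percentile, and differences are on the same log2 scale. Signals of different probes were not compared as amounts of RNA, because each probe binds with its own strength. They served to choose the brightest probe of a gene and to sum markers of a cell type, where bright probes weigh most.

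PPARGC1A encodes PGC-1alpha, a coactivator that binds transcription factors and raises the transcription of nuclear genes for mitochondria, for fat oxidation and, in liver, kidney and intestine, for making glucose. PPRC1 encodes a related coactivator, and ESRRA and ESRRG encode orphan nuclear receptors that PGC-1 proteins coactivate on genes of the respiratory chain. GABPA encodes the DNA-binding subunit of a factor that also activates respiratory genes. TFAM packs mitochondrial DNA and helps to start its transcription, and POLG is the catalytic subunit of the polymerase that copies this DNA. In late gestation the jejunal epithelium prepares for the switch from placental glucose to the fat and lactose of milk.

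The probes that the results turn on are shown first, because several of them read 1 gene and did not give 1 answer. The probe of PPARGC1A and the 3 TFAM probes that do not repeat each other are shown by the first 30 of their 60 bases, 5′ to 3′ as the array files give them. The fourth TFAM probe, A_72_P640550, shares a run of 40 bases with A_72_P149791.
PPARGC1A O9324: ttccatgaagacacacgtaaaacctagaac
TFAM A_72_P149791: ctgtaatcatgtgattttgctattgctttt
TFAM A_72_P305714: agagtcgatggttgtatgtggaaaggattg
TFAM A_72_P579182: tgaagaaaggaaagcattgtcatgctgttc

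For POLG, 3 of the probes are shown whole. Capitals mark the run of 32 bases of A_72_P039281 that O1774 carries as its reverse complement, so these 2 probes read opposite strands of the same stretch. The sequence of A_72_P190531 was printed on the array a second time under the name A_72_P567124.
POLG A_72_P039281: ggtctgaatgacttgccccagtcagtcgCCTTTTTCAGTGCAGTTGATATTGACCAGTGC
POLG O1774: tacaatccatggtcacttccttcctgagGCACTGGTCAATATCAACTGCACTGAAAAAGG
POLG A_72_P190531: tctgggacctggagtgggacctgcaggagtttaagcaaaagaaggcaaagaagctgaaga

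PPARGC1A rose from day 90 to day 110 in all 4 genotypes. Of the 7 genes with a tested probe, it was the 1 whose rise passed the thresholds given below in each genotype. ESRRA also had a higher group mean at day 110 in each genotype, short of these thresholds in the fit used here. At day 90 the PPARGC1A level ranged from -0.07 to 1.20 in LW (median 1.05), from 0.45 to 1.57 in MSLW (median 0.77), from 0.41 to 1.37 in LWMS (median 1.03) and from 0.07 to 0.90 in MS (median 0.64). At day 110 it ranged from 1.30 to 2.07 in LW (median 1.53), from 1.11 to 2.54 in MSLW (median 1.85), from 1.86 to 2.38 in LWMS (median 2.07) and from 1.51 to 2.29 in MS (median 1.84). The ranges of the ages did not overlap in LW, LWMS or MS, and in MSLW 1 fetus of each age crossed over. Over all genotypes, 23 of the 31 fetuses at day 110 were above the highest fetus at day 90, and 26 of the 32 fetuses at day 90 were below the lowest at day 110.

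**Figure D1:**
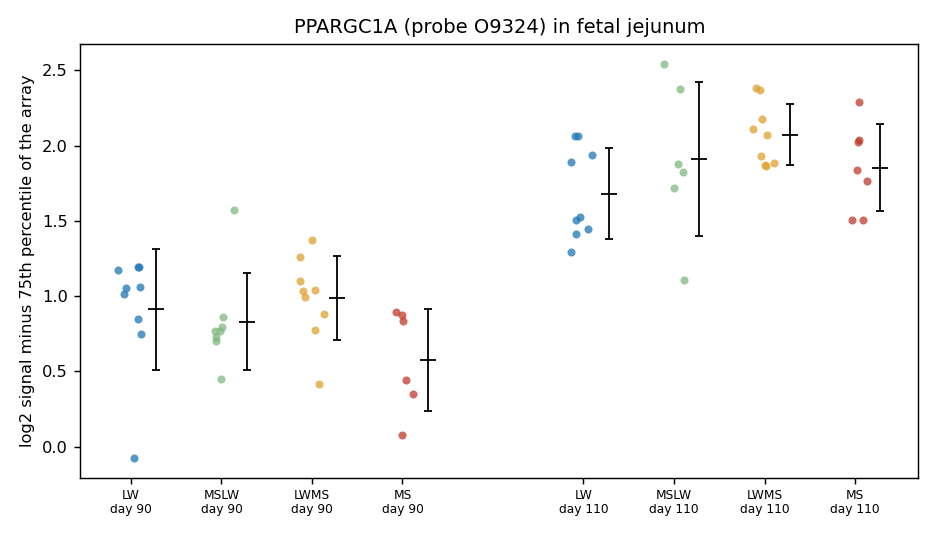
PPARGC1A signal in each of the 63 fetuses (points; log2 signal minus the 75th percentile of the array, vertical axis) by genotype and day of gestation, with the mean and SD of each group beside the points. All 4 group means at day 110, from 1.68 to 2.07, lie above all 4 at day 90, from 0.58 to 0.99.

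The change with age was 0.77 in LW (SE 0.16, adjusted p = 0.000470), 1.27 in MS (SE 0.19, adjusted p = 2.73e-06), 1.09 in LWMS (SE 0.16, adjusted p = 6.21e-07) and 1.08 in MSLW (SE 0.18, adjusted p = 2.31e-05). As a mean of the 4 genotypes it was 1.05 (SE 0.09, 95% interval 0.88 to 1.22, adjusted p = 1.80e-15), a fold of 2.07. A change with age was called where the adjusted p did not exceed 0.01 and the log2 difference reached 0.5 in either direction, which 4.77% of all tested probes met in LW, 3.17% in MS, 9.88% in LWMS, 5.41% in MSLW and 13.7% for the mean of the 4 genotypes. Among the 14 member probes, 1 was called in LW, 1 in MS, 1 in LWMS, 2 in MSLW and 2 for the mean, and the median member probe moved by -0.01 in the mean, against -0.02 for all tested probes. The rise of PPARGC1A was present within each of the 8 slides, by 0.78 to 1.46, and leaving out any 1 fetus left the change between 0.65 and 0.82 in LW, called each time. Centring the arrays on their median in place of the 75th percentile took the LW change to 0.74 (adjusted p = 0.0386) and the MSLW change to 1.01 (adjusted p = 0.0104), neither of them called.

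The order of the group means was LWMS (2.07 ± 0.20, SD, n = 9), MSLW (1.91 ± 0.51, n = 6), MS (1.85 ± 0.29, n = 7) and LW (1.68 ± 0.30, n = 9) at day 110, then LWMS (0.99 ± 0.28, n = 9), LW (0.91 ± 0.40, n = 9), MSLW (0.83 ± 0.32, n = 8) and MS (0.58 ± 0.34, n = 6) at day 90. The 1 step in this order that exceeded the pooled SD of its neighbours was that between LW at day 110 and LWMS at day 90, of 0.70 against a pooled SD of 0.29. Purebred MS fetuses were thus the lowest of the groups at day 90 and LW fetuses the lowest at day 110, but these differences did not pass the test. MS minus LW was -0.33 at day 90 (95% interval -0.69 to 0.02, adjusted p = 0.317) and 0.17 at day 110 (95% interval -0.17 to 0.51, adjusted p = 0.596). The change with age exceeded that of LW in MS by 0.51 (SE 0.24, 95% interval 0.02 to 0.99), with an unadjusted p under 0.05 that did not pass the adjustment over all probes (adjusted p = 0.724). This breed by age interaction was called in 0.0173% of all tested probes and in none of the 14 member probes.

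No effect of the breed of the parents on PPARGC1A passed the test either. The effect of the sow's breed, the mean of the groups from MS sows minus that from LW sows, was 0.04 (95% interval -0.13 to 0.21, adjusted p = 0.793), and that of the sire's breed was -0.12 (95% interval -0.29 to 0.05, adjusted p = 0.481). The sow's breed by age interaction was 0.26 (adjusted p = 0.644), where 0.388% of all tested probes were called at an adjusted p under 0.05.

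Another 3 probes were described on the array as the same gene but carried another gene name, PPARGC-1 or TC618560, and so lay outside the rule. Probe A_72_P077836 followed O9324 closely, with a correlation within groups of 0.93 over the 63 arrays, and rose by 0.67 in LW, 1.22 in MS, 1.07 in LWMS and 1.06 in MSLW, all of them called. Probe A_72_P297579 had a correlation within groups of 0.59 with O9324 and did not repeat its pattern in every genotype. In LW its level ranged from -1.29 to -0.68 at day 90 (median -0.87) and from -0.996 to 0.08 at day 110 (median -0.36), and its change of 0.50 was not called (SE 0.15, adjusted p = 0.0178). In MS its level ranged from -1.34 to -0.60 at day 90 (median -1.07) and from -0.23 to 0.65 at day 110 (median 0.20), and its change of 1.27 was called (adjusted p = 5.25e-07). With this probe MS exceeded LW at day 110 by 0.65 (SE 0.16, 95% interval 0.34 to 0.97, adjusted p = 0.00301), which was called, while the interaction was 0.77 (SE 0.23, adjusted p = 0.258), which was not. The dimmest of these probes, A_72_P404198, was well above background on 52 of the 63 arrays and rose by 0.81 as a mean of the 4 genotypes (adjusted p = 2.51e-05), with MS minus LW of 0.01 at day 110 (SE 0.30). The rise with age was therefore read by all 4 probes as a mean of the genotypes, and the breed difference at day 110 by 1 of the 4.

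Markers of several cell types differed between the ages as well. Of 12 enterocyte markers, 9 were tested, and 4 of these rose and 1 fell as a mean of the genotypes, at the same thresholds, while FABP2, EPCAM, APOA4 and APOA1 were not called. FABP1, which carries fatty acids in enterocytes, rose by 2.55, ALPI, the intestinal alkaline phosphatase, by 2.47, SI, the sucrase, by 1.67 and LCT, the lactase, by 1.37, while ANPEP, a brush border peptidase, fell by 0.59. VIL1, CDH17 and KRT20 had no probe under these names, and SI was well above background on 24 of the 63 arrays, so that the size of its difference rests mostly on signals near background. The summed signal of the tested enterocyte markers, on a linear scale in units of the 75th percentile of the array, had group medians of 753 to 947 at day 90 and of 994 to 1552 at day 110. That of 6 fibroblast markers had group medians of 151 to 202 at day 90 and of 99.1 to 127 at day 110, with COL1A1 and COL1A2 called lower. That of 8 smooth muscle markers had group medians of 626 to 660 at day 90 and of 495 to 612 at day 110, with ACTA2 called lower, by -0.55. That of 5 enteric neuron and glia markers had group medians of 19.6 to 21.7 at day 90 and of 14.1 to 17.8 at day 110, with ELAVL4 and UCHL1 called lower. Of 3 erythroid markers HBB and AHSP were called lower, of 6 leukocyte markers CD163 was called higher, and of 5 endothelial markers none was called. The part of these shifts in the rise of PPARGC1A was not tested, and in whole tissue more cells that express a gene and more RNA per cell cannot be told apart. MS fetus 632 at day 110 stood apart, with an enterocyte sum of 152 and the lowest median correlation with the other arrays (0.907). Its PPARGC1A level of 2.29 was the highest of the MS group, and without it the MS change was 1.20 (adjusted p = 1.09e-05).

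For PPRC1, the related coactivator, no difference passed the test. Its tested probe, A_72_P102901, ranged from -0.36 to 1.48 at day 90 (median 0.65) and from -0.20 to 1.47 at day 110 (median 0.59), and the ages overlapped almost fully. As a mean of the 4 genotypes its difference was -0.03 (SE 0.10, adjusted p = 0.851), and within the slides it was higher at day 110 on 4 of 8. MS minus LW was 0.21 at day 90 (SE 0.22) and 0.17 at day 110 (SE 0.21), not called at either age. The other PPRC1 probe, O14266, was well above background on 1 of the 63 arrays and was not tested.

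ESRRA, the receptor ERRalpha, had higher group means at day 110 in each genotype, by amounts that stayed short of the thresholds in the fit used here. Its level ranged from 3.10 to 4.71 at day 90 (median 3.78) and from 3.27 to 4.92 at day 110 (median 4.38). The ages overlapped widely, and 5 of the 31 fetuses at day 110 were above the highest fetus at day 90. The difference was 0.12 in LW (SE 0.18), 0.47 in MS (SE 0.22), 0.61 in LWMS (SE 0.18, adjusted p = 0.0132) and 0.67 in MSLW (SE 0.21, adjusted p = 0.0268). As a mean of the 4 genotypes it was 0.47 (SE 0.10, adjusted p = 0.000132), which met the limit on p but not that on size, and it was positive on 8 of 8 slides, by 0.14 to 0.76. With arrays weighted by their quality the difference was 0.77 in MS (adjusted p = 0.000638) and 0.57 as a mean of the genotypes (adjusted p = 1.64e-08), both called, and MS exceeded LW at day 110 by 0.75 (adjusted p = 0.000618), against 0.39 without weights (adjusted p = 0.217). ESRRA was 1 of 3 member probes that differed among the 8 groups (adjusted p = 0.000337), with 28.8% of all tested probes called in that test at an adjusted p under 0.01. It was also higher in fetuses of MS sows, by 0.28 (SE 0.10, adjusted p = 0.0423), a test called in 15.9% of all tested probes. The call for the sow's breed was lost in 27 of the 63 fits that left out 1 fetus, with adjusted p up to 0.0759 without MSLW fetus 851 of day 110. Within groups ESRRA and PPARGC1A had a correlation of -0.05 over the 63 arrays.

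**Figure D2:**
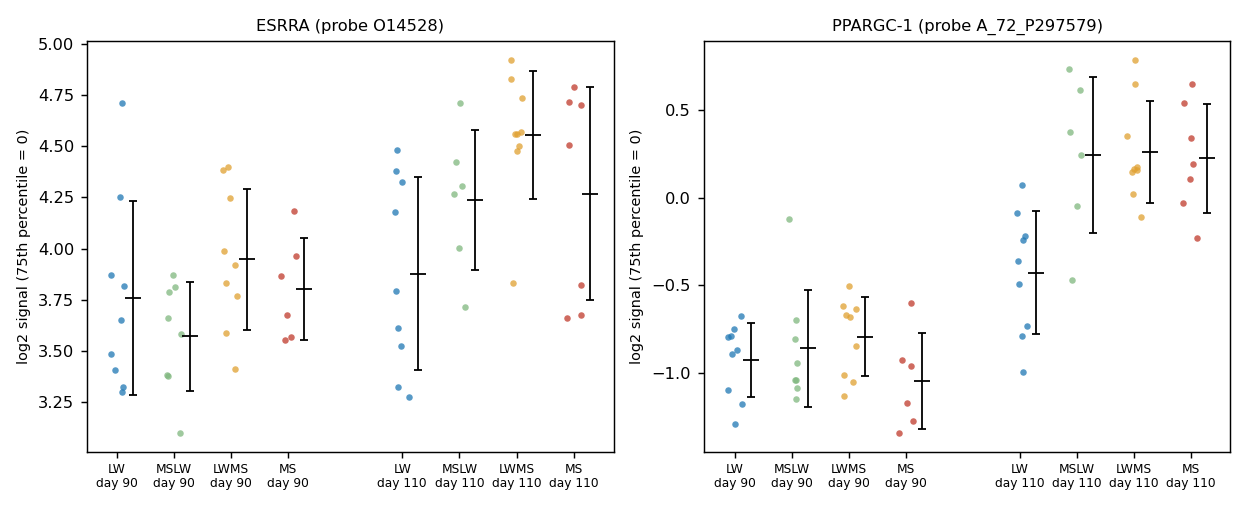
ESRRA signal (left) and the signal of probe A_72_P297579, named PPARGC-1 on the array (right), in each fetus (points) by genotype and day, as log2 signal with the 75th percentile of the array at 0, with the mean and SD of each group. ESRRA group means span 3.57 to 4.55 with wide overlap, and in the right panel LW at day 110 (mean -0.43) lies below the other 3 groups of that day, at 0.23 to 0.26.

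ESRRG, the receptor ERRgamma, was near the lower end of detection. Its brighter probe, O5649, was well above background on 47 of the 63 arrays, and its other probe, A_72_P031731, on 41. In MSLW fetuses A_72_P031731 ranged from -5.37 to -3.23 at day 90 (median -4.34) and from -7.03 to -4.84 at day 110 (median -5.85), where it was well above background in 2 of 6 fetuses. This fall of 1.44 (SE 0.38, adjusted p = 0.00803) was called, while O5649 gave -0.92 (SE 0.38, adjusted p = 0.110). Leaving out MSLW fetus 476 of day 110 took the first value to -1.18 (adjusted p = 0.0499), and 10 of the 63 fits without 1 fetus did not call it. With normexp background correction, which lifts dim signals, the fall at A_72_P031731 was -0.34 (adjusted p = 0.143). The call was also lost with the authors' log2 values (-0.56, adjusted p = 0.0417) and quantile normalization (-1.54, adjusted p = 0.0332). Median centring (-1.51, adjusted p = 0.0190) and no filter on dim probes (-1.44, adjusted p = 0.0133) lost it too. In LW, MS and LWMS the differences of both probes lay between -0.08 and 0.47, none of them called.

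**Figure D3:**
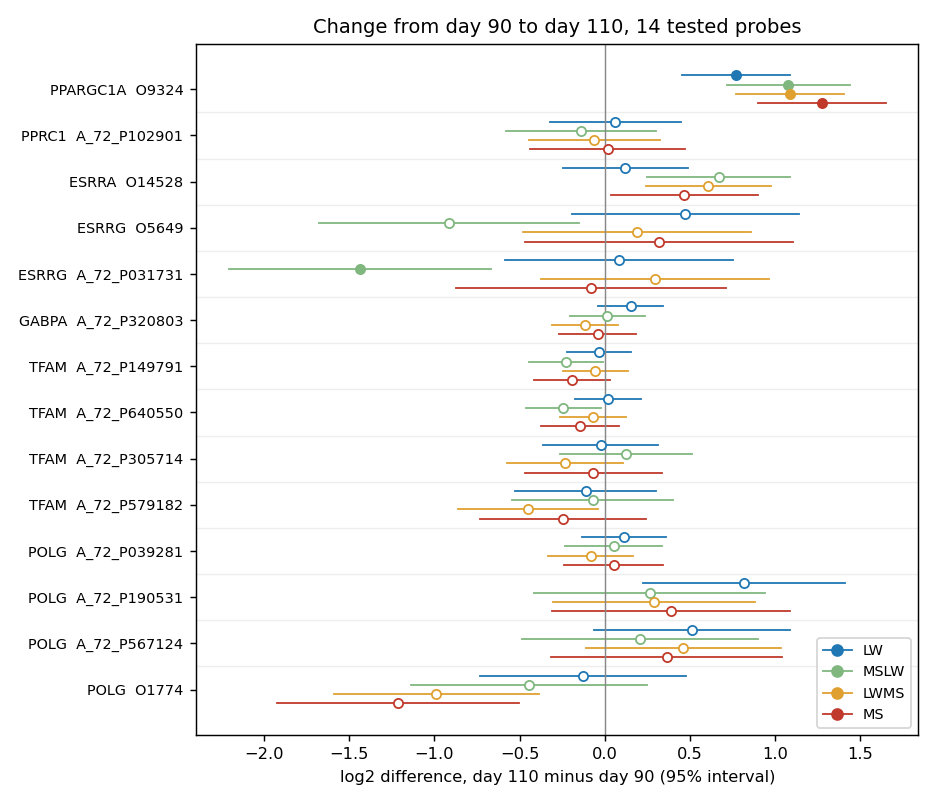
Change from day 90 to day 110 (log2 difference with its 95% interval, horizontal axis) of the 14 tested probes of the set in each of 4 genotypes, with filled points where the change was called. PPARGC1A is filled in all 4 genotypes, and 1 probe of ESRRG in MSLW is the 1 other filled point.

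For GABPA no change with age passed the test, and LW had the lowest group mean at day 90. Probe A_72_P320803 ranged from -2.59 to -1.99 in LW (median -2.42), from -2.41 to -1.83 in MSLW (median -2.02), from -2.29 to -1.93 in LWMS (median -2.09) and from -2.30 to -1.59 in MS (median -2.07) at day 90, with overlap between all groups. The change with age as a mean of the 4 genotypes was 0.00 (SE 0.05). MS minus LW was 0.35 at day 90 (SE 0.11, adjusted p = 0.0317) and 0.16 at day 110 (SE 0.10, adjusted p = 0.371), neither called. With both ages pooled, and not balanced between the breeds on each slide, MS was higher on 7 of the 7 slides that held both breeds. The sire's breed had an effect of 0.16 (SE 0.05, adjusted p = 0.0485), in a test called in 6.97% of all tested probes. That call rested close to the threshold, and 43 of the 63 fits without 1 fetus lost it, with adjusted p up to 0.0905 without MS fetus 827 of day 90. The other GABPA probe, O804, was well above background on 12 arrays and was not tested.

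TFAM gave 2 answers. At its brightest probe, A_72_P149791, no age or breed difference was called, with group means between 1.42 and 1.68 and a change with age of -0.13 as a mean of the genotypes (SE 0.05, adjusted p = 0.0421), which met neither limit. A_72_P579182 separated the breeds. Its level ranged from -2.44 to -0.60 in the 18 LW fetuses (median -1.27), from -1.75 to 0.12 in the 32 crossbred fetuses (median -0.33) and from -0.11 to 0.80 in the 13 MS fetuses (median 0.35). No LW fetus reached the lowest MS fetus, and the crosses lay between the purebreds and overlapped both. MS minus LW was 1.83 at day 90 (SE 0.23, adjusted p = 3.21e-08) and 1.70 at day 110 (SE 0.22, adjusted p = 5.77e-08), folds of 3.56 and 3.24. Of all tested probes, 3.59% were called at day 90 and 5.01% at day 110 in this comparison, and A_72_P579182 was the 1 member probe called at each age.

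**Figure D4:**
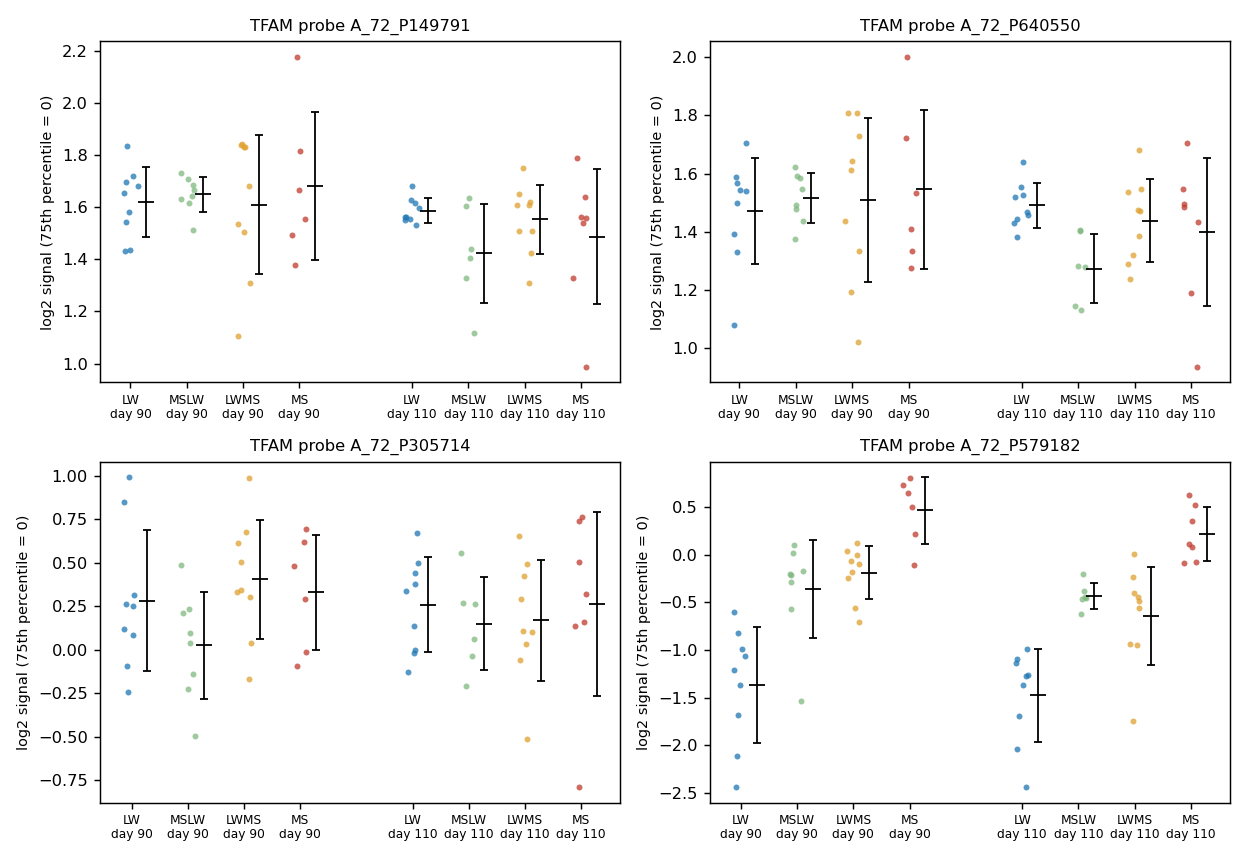
The 4 TFAM probes in each fetus (points) by genotype and day, as log2 signal with the 75th percentile of the array at 0 and a separate vertical scale in each panel, with the mean and SD of each group. Genotypes overlap in 3 panels, and in the panel of A_72_P579182 LW lies lowest (group means -1.36 and -1.48), MS highest (0.47 and 0.22) and both crosses between them.

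The effects of the parents on A_72_P579182 were alike in size, 0.87 for the sow's breed (SE 0.11, adjusted p = 2.59e-08) and 0.89 for the sire's breed (SE 0.11, adjusted p = 2.44e-08). MSLW and LWMS fetuses had means of -0.36 ± 0.52 (SD, n = 8) and -0.19 ± 0.28 (n = 9) at day 90, and of -0.43 ± 0.14 (n = 6) and -0.64 ± 0.52 (n = 9) at day 110. MS exceeded LW within all 7 slides that held both breeds, by 1.14 to 2.79, and in each fit that left out 1 fetus. The values within slides pool both ages, which were not balanced between the breeds on each slide. Its change with age was -0.22 as a mean of the genotypes (SE 0.11, adjusted p = 0.113), which was not called. The other 3 probes gave MS minus LW of 0.06, 0.07 and 0.05 at day 90 and of -0.10, -0.09 and 0.00 at day 110, none called. A_72_P579182 and A_72_P149791 were designed from the same transcript record, with starts at bases 1565 and 1888, and within groups they had a correlation of 0.38 over the 63 arrays. The reason for the disagreement among the TFAM probes was not tested.

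**Figure D5:**
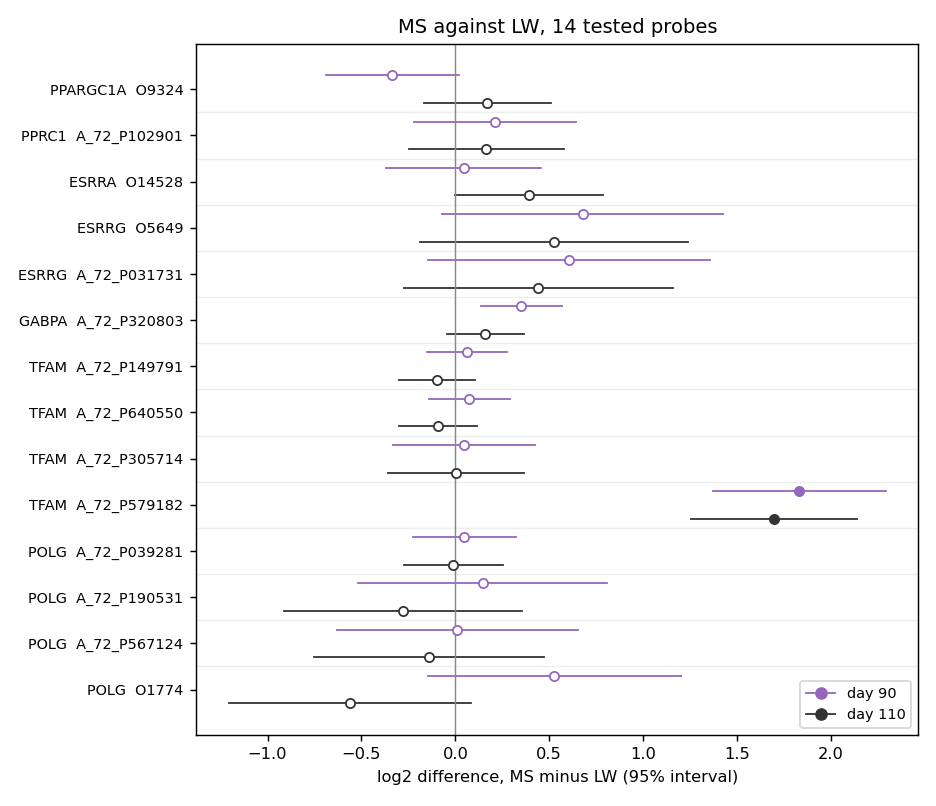
MS minus LW (log2 difference with its 95% interval, horizontal axis) at day 90 and day 110 for the 14 tested probes of the set, with filled points where the difference was called. The 2 filled points belong to TFAM probe A_72_P579182, at 1.83 and 1.70.

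At the brightest POLG probe no change with age passed the test. A_72_P039281 ranged from -0.01 to 0.95 at day 90 (median 0.65) and from -0.03 to 1.17 at day 110 (median 0.73), a difference of 0.03 as a mean of the genotypes (SE 0.07, adjusted p = 0.738). MS minus LW was 0.05 at day 90 (SE 0.14) and -0.01 at day 110 (SE 0.13). The twin spots A_72_P190531 and A_72_P567124 gave 0.44 (SE 0.16, adjusted p = 0.0239) and 0.39 (SE 0.16, adjusted p = 0.0453) with age, not called. Since both carry the same sequence, their difference shows the measurement error at that signal, with an SD of 0.35 and a correlation of 0.85 over 62 arrays. O1774, which reads the strand opposite to A_72_P039281, was well above background on 39 of the 63 arrays. It was called lower at day 110 as a mean of the genotypes, by -0.69 (SE 0.16, adjusted p = 0.000491), and was 1 of the 2 member probes called there. A_72_P039281 was designed from a transcript record of POLG, so the value of O1774 is not taken as a change of POLG mRNA. With normexp background correction the O1774 difference was -0.13 (adjusted p = 0.194). With the authors' log2 values it was -0.28 (adjusted p = 0.000285), short of the limit on size, so neither setting called it. The fifth probe, A_72_P378733, was well above background on 29 arrays and was not tested.

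Genes that work beside or below these regulators were described from lists, each gene by its brightest tested probe. Among 18 genes of gluconeogenesis and fat oxidation known as PGC-1 targets, 3 were called higher at day 110 as a mean of the genotypes and none lower, where 6.12% of all tested probes were called higher and 13.7% in either direction. With 18 genes this count is close to the share called in either direction and above the share called higher, and the difference was not tested. The median of this list was 0.12, against -0.02 for all tested probes. G6PC, the last enzyme of glucose release, was well above background in 14 of 32 fetuses at day 90 and in 30 of 31 at day 110, and rose by 5.08 (SE 0.25, adjusted p = 3.38e-24). The size of this difference rests in part on signals at day 90 that were not well above background, in LW in all but 3 of 9 fetuses, in MSLW in all but 4 of 8 and in LWMS in all but 2 of 9. PDK4, a kinase that inhibits the pyruvate dehydrogenase complex, rose by 2.08 (SE 0.18, adjusted p = 1.93e-14), and PCK1, the entry enzyme of gluconeogenesis, by 1.45 (SE 0.19, adjusted p = 4.52e-09). G6PC was the member of this list called higher in MS than in LW at day 110, by 3.04 (SE 0.50, adjusted p = 9.88e-06), with levels from -5.10 to 0.28 in LW and from -1.83 to 2.14 in MS, which overlapped.

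The other lists held no larger share of calls than the 13.7% of all tested probes called with age. Of 74 tested genes of the respiratory chain, 3 were called higher with age and 1 lower, with a median of 0.16. ATP5G1, a subunit of the ATP synthase ring, rose by 0.51 (adjusted p = 4.99e-06), CYCS, the cytochrome c that shuttles electrons, by 0.66 (adjusted p = 9.95e-06), and COX7A2L, which takes part in assembling respiratory supercomplexes, fell by 0.56 (adjusted p = 0.000176). None of 55 tested genes of the mitochondrial ribosome was called, with a median of -0.01. Among 12 tested partners of TFAM and POLG in copying and transcribing mitochondrial DNA, C20ORF72, the exonuclease also called MGME1, fell by 0.57 (adjusted p = 3.02e-11), and no other was called. In import and chaperones 1 of 11 was called, TOMM34, which fell by 0.76 (adjusted p = 1.50e-14), and in fusion, fission and mitophagy 1 of 8, the mitophagy receptor BNIP3L, which fell by 0.59 (adjusted p = 5.46e-13). Of 24 tested regulators and partners of PGC-1, NFE2L2, a factor of the oxidative stress response, rose by 0.72 (adjusted p = 1.32e-10) and ATF2, a factor that binds cAMP response elements, fell by 1.20 (adjusted p = 0.00289). The ATF2 probe was well above background in 32 of 32 fetuses at day 90 and in 23 of 31 at day 110. The size of its fall therefore rests in part on signals near background.

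The genes whose levels were most like PPARGC1A over the 63 arrays were HIF3A (r = 0.84), POR (0.83), NUMB (0.81), PFKFB3 (0.81) and AHCYL2 (0.80), and the most opposite were MAT1A (-0.82), B3GALNT1 (-0.81) and CRSP-2 (-0.80). These correlations describe arrays that share the 2 ages, and they were smaller once the group means were taken out, at 0.51 for HIF3A, 0.37 for POR, 0.64 for NUMB, 0.38 for PFKFB3 and 0.13 for AHCYL2. HIF3A, a relative of the hypoxia-inducible factors, rose by 0.70 in LW and 1.28 in MS, beside 0.77 and 1.27 for PPARGC1A. It was picked by its correlation over these same arrays, so the likeness of these changes is no separate result. Among the brightest probes of the set itself, the correlations of PPARGC1A within groups lay between -0.20, with GABPA, and 0.18, with ESRRG.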

How the data were processed

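The authors deposited Agilent Feature Extraction 10.10.1.1 output per array, with background-corrected spot intensity and flags, together with log2 values of 39446 probes in a matrix, whose array medians all lie at 8.61 and which correlate at 0.993 or more with the log2 median spot signals. The authors normalized them after quality control, by a method not named in the sources used here. Genome positions of the probes were not analysed here. Here log2 of the corrected intensity minus the 75th percentile of each array was used. Control spots were left out, outlier spots set to missing, and spots of a probe averaged. Between 51.2% and 87.6% (median 66.7%) of probes were well above background on an array. No spot was saturated. Precision is limited by how many arrays a group has.

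The 8 group means were fitted with limma 3.58.1 (R 4.3.3, jsonlite 2.0.0), with two-sided p-values adjusted by the Benjamini-Hochberg method over 40515 probes. Calls for age and for MS against LW needed an adjusted p no higher than 0.01 with a log2 difference of 0.5 or more in size, calls for the interaction of breed and age the same p alone, sow and sire terms a value under 0.05, and the test among the 8 groups one under 0.01. The sow, a random effect in the study's model, was not fitted, so litter mates count as independent and p-values measure the spread between these fetuses. Age, the sow's breed and MS against LW differ only between litters. For these terms the standard errors and intervals may therefore be too narrow and the p-values too small.

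The members and lists were chosen with earlier results of these data known. Genes were named as members, by correlation with PPARGC1A, or as the 3 called genes of lowest p in a list, each by its brightest tested probe. The other PPARGC1A probes, fetus 632 and the fits without each fetus were added after the data were seen. The steps were tested on simulated data. Alternatives were the authors' log2 values, quantile normalization, centring on the median, normexp correction (offset 50), 2 other filters on dim probes, the slide as a block, array weights, fetuses 484 and 469 left out, purebred fetuses alone, and other probes of a gene.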

Additional observations from a re-analysis of the deposited data

Results flagged for a closer look

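In 64 groups of values (the brightest probe of 7 genes and TFAM probe A_72_P579182, each in 8 groups), 6 held a fetus far from the rest of its group by Dixon's test, where chance alone gives about 1 in 20 groups. LW fetus 484 at day 90 had a PPARGC1A level of -0.0741, with the next fetus at 0.75. MSLW fetus 450 at day 90 had the highest PPARGC1A level of its group, 1.57, above the next at 0.86, and it also had the lowest level of TFAM probe A_72_P579182, -1.54, below the next at -0.57. LWMS fetus 609 at day 110 had an ESRRA level of 3.83, with the next at 4.48. MSLW fetus 476 at day 110 had a level of -7.07 at ESRRG probe O5649, with the next at -4.95. LW fetus 500 at day 90 had a GABPA level of -1.99, with the next below it at -2.31.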

How the results depend on the processing

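No paired analysis was possible because the replicate numbers are fetus numbers, which the groups do not share. Of 1216 values of single genes under the alternatives, 1173 kept their side of the threshold, 20 lost a call, 20 gained one and 3 reversed with a call on one side. Of those never called, 98 changed sign. Most of the 1216 values belong to differences not called in the fit used here. The 1173 therefore mostly stayed uncalled and do not measure how stable the calls are. The 3 reversals were readings of another probe. TFAM MS minus LW at day 110 was 1.70 and the sire's breed 0.89 at A_72_P579182. The change with age was -0.69 at O1774, which reads the strand opposite to the brightest POLG probe.

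PPARGC1A kept its call in all 63 fits without 1 fetus, with changes of 0.65 to 0.82 in LW, 1.17 to 1.34 in MS, 1.02 to 1.14 in LWMS and 0.95 to 1.24 in MSLW. In the same fits MS minus LW was -0.46 to -0.23 at day 90 and 0.10 to 0.23 at day 110, and the interaction 0.40 to 0.63, never called. Median centring ended the calls in LW (0.74) and MSLW (1.01). Probe A_72_P297579 did not call LW (0.50) but called MS minus LW at day 110 (0.65), and A_72_P404198 called neither LW (0.77), MS (0.74) nor MSLW (0.73). The cause was not tested.

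ESRRA gained calls. With array weights its change with age was 0.77 in MS, 0.67 in LWMS, 0.71 in MSLW and 0.57 in the mean, and MS minus LW at day 110 was 0.75. Other settings called it in LWMS (0.61 to 0.63) or MSLW (0.54 to 0.80), and median centring in the mean (0.51). The sow's breed lost its call with quantile normalization (0.17) and without a filter on dim probes (0.28).

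Counts of member probes called moved as follows. The share of all tested probes called under each setting is not given here, so these counts do not show a shift particular to the members. With age, LW (1 of 14) gave 0 with median centring and 2 with array weights, and MS (1) gave 2 with the slide as a block and 2 with array weights. LWMS (1) gave 2 with normexp, 3 with the slide block, 3 with array weights and 2 without fetuses 484 and 469. MSLW (2) gave 0 with median centring and 1 with normexp, without a filter on dim probes, with probes well above background on all arrays, or with the brightest probe of each gene. The mean of the genotypes (2) gave 1 with the authors' values, normexp, the all-array filter or the brightest probe. MS minus LW (1 at each age) gave 0 at both ages with the brightest probe and 2 at day 110 with array weights. The sow's breed (2) gave 1 with quantile normalization, no filter or the brightest probe. The sire's breed (2) gave 1 with the authors' values, quantile normalization, median centring, no filter, without fetuses 484 and 469, or with the brightest probe. The test among 8 groups (3) gave 6 with array weights. Probes of ESRRG and POLG O1774 near background are limited by their signal. Their calls were lost with normexp (-0.34 and -0.13) and with the authors' values (-0.56 and -0.28). The ESRRG call was also lost with quantile normalization (-1.54), median centring (-1.51) and no filter on dim probes (-1.44).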

Other observations

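Some genes of the lists were called between MS and LW, while PPARGC1A was not called at its member probe. FOXO1, a factor that works with PGC-1alpha on gluconeogenic genes, was lower in MS than in LW by -0.88 at day 90 (SE 0.18, adjusted p = 0.000422) and by -0.75 at day 110 (SE 0.17, adjusted p = 0.00144), and it was the 1 gene called at each age among 24 tested regulators and partners of PGC-1. Of all tested probes, 3.59% were called at day 90 and 5.01% at day 110, of them 1.84% higher in MS at day 110. Of 8 tested genes of fusion, fission and mitophagy, 2 were called higher in MS at day 110, PINK1, the kinase that marks damaged mitochondria, by 0.58 (SE 0.16, adjusted p = 0.00808), and MFF, which recruits the fission enzyme, by 0.78 (SE 0.21, adjusted p = 0.00827). Of 12 tested partners of TFAM and POLG, C20ORF72 was lower in MS at day 110 by -0.53 (SE 0.12, adjusted p = 0.00164). At day 90 1 of 74 tested genes of the respiratory chain was called, UQCRC2, a core subunit of complex III, which was lower in MS by -1.05 (SE 0.25, adjusted p = 0.00344). None of 55 tested genes of the mitochondrial ribosome and none of 11 of import and chaperones was called at either age. The counts of 1 of 24 and 1 of 74 were close to or below the share of all tested probes called. No count of a list was tested against that share. A separate probe for each of the called genes was not compared.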
